A study of Mus musculus with 6 samples.

Results

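DNA damage sensing and repair genes were examined in whole mouse testes at the age of 12 days. The 42 genes were taken by name from the first column of the deposited normalized table. The rule uses no measured value, but the list was chosen with earlier results of these data known. The genes cover the checkpoint kinases, the proteins that gather at broken chromatin, and homologous recombination, end joining, base excision, mismatch and nucleotide excision repair. All 42 had a gene row, out of 30774 rows in the table. Gene names are written in capitals, as in that table.

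Expression was measured with the Illumina MouseWG-6 v2 array, 1 array for each of 3 ScAtrxKO and 3 Wildtype testis samples. All mice were C57BL/6 males. In ScAtrxKO mice a floxed Atrx gene was deleted by Cre recombinase under the AMH promoter, which is active in Sertoli cells, the somatic nurse cells of the seminiferous tubule. Wildtype testes served as controls. The whole organ was measured, so germ cells and interstitial cells, in which the gene is not targeted, contribute to every value, and fewer cells of a type cannot be told apart from less RNA per cell. The labels do not say whether the 3 samples of a genotype came from separate animals, and the p-values therefore measure only the spread between these samples.

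The DNA damage response starts with kinases that sense broken or single-stranded DNA and hold the cell cycle while repair proceeds, and each kind of lesion is then handled by its own set of enzymes. Cells that copy their DNA use many of the same proteins at replication forks. In the testis, spermatocytes make double-strand breaks on purpose in early meiosis and mend them by homologous recombination, so germ cells are rich in several of these proteins.

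The letters of 2 promoters are shown because MSH6 and XPA are the genes with the largest decrease and the only increase that passed the test described below. Both windows come from RefSeq on GRCm38.p6 and run from 250 bases before to 50 bases after the annotated start, printed 5′ to 3′ on the strand of the gene, MSH6 at chr17:87974800-87975099 on the plus strand and XPA at chr4:46196262-46196561 on the minus strand. Capitals mark every match, on either strand, to an E2F motif (TTTCCCGC, TTTGGCGC, TTTCGCGC or TTTGCCGC), to the CCAAT box or to the GC box GGGCGG.
MSH6: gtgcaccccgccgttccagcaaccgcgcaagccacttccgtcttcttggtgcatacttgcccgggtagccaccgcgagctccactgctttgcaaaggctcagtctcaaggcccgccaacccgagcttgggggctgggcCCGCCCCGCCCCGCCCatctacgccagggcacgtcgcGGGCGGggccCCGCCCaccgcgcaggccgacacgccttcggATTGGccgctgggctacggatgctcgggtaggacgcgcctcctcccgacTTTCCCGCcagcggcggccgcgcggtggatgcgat
XPA: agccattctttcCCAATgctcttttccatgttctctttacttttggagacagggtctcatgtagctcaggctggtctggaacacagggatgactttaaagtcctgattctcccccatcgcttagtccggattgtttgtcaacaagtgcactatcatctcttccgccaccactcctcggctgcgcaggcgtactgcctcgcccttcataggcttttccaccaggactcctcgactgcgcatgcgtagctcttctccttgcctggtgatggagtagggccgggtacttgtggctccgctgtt
The MSH6 window held 1 E2F match, 1 CCAAT box on the opposite strand and 5 GC boxes, 3 of them in a run in which neighbours share 1 base. The XPA window held 1 CCAAT box and no other match.

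RefSeq gave 39 such windows for 35 of the 42 genes, and H2AFX, RAD50, NBN, XRCC2, WRN, FANCD2 and XPC had no entry. An E2F motif, the recognition sequence of the factors that drive transcription at the start of S phase, lay in 9 of the 39 windows (23.1%), against 2.26% of 32851 windows of all genes and 2.85% of 21263 windows of protein-coding genes. The 9 windows belonged to BRCA2, CHEK2, FANCG, LIG1, MDC1, MSH3, MSH6, TOPBP1 and XRCC6. A CCAAT box lay in 48.7% of the repair gene windows and in 38.2% of the protein-coding windows, and a GC box in 69.2% and 46.2%. The palindromic NRF1 motif lay in 2.56% and 1.33%. The repair gene windows were also richer in G and C, with a median GC content of 60% and a median of 22 CpG dinucleotides, against 56.3% and 13 in protein-coding windows. The part of base composition in the motif shares was not tested, and a match is a run of letters and not a measured binding site.

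The targeted gene could not be checked with these arrays. Its row had a background-subtracted intensity of 3.03 ± 0.551 in ScAtrxKO and 3.53 ± 1.81 in Wildtype testes (SD, n = 3 each) and was detected on 0 of 6 arrays, where detected means a detection p under 0.01. The arrays had a mean intensity of 350 to 469 in ScAtrxKO and 368 to 381 in Wildtype testes. Between 10493 and 10917 rows were detected on ScAtrxKO arrays and between 10624 and 10803 on Wildtype arrays. Normalized log2 values were compared with limma for the 13026 rows detected on at least 1 array, and a gene passed the test at a Benjamini-Hochberg adjusted p under 0.05.

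The share of repair genes that passed the test was close to that of all rows. Of the 42, 29 entered the test, 1 was higher in ScAtrxKO testes (XPA), 2 were lower (MSH6 and RAD50) and 26 did not pass. These 3 genes made 10.3% of the 29, where 13% of all rows tested passed. In each direction, 1 of 29 higher stood against 7.47% of all rows and 2 of 29 lower against 5.50%. Of the 29, 0 passed the test together with a fold change of at least 1.5, which is 0.58 on the log2 scale, and 1.30% of all rows tested did. The median log2 fold change of the 29 genes was -0.07, with a range of -0.44 to 0.26, and that of all rows tested was -0.01.

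On the deposited, variance-stabilized scale the standard error of the log2 fold change had a median of 0.05 over the 29 genes and ran from 0.04 to 0.15. The 95% interval lay inside a change of 1.5-fold in either direction for 28 of the 29 genes (96.6%), as for 96.4% of all rows tested, the exception being ATR. With log2 quantile normalization and log2 median scaling of the intensities it did so for only 20 and 21 of the 29 genes. Several fold changes were also larger there, and with log2 quantile normalization XPA stood at 0.48, MSH3 at -0.40, BRCA2 at -0.34, RAD50 at -0.31 and CHEK2 at -0.29. The fold change was below 0 for 26 of the 29 genes (89.7%), against 54.8% of all rows tested. Leaving out 1 array gave 21 to 27 of the 29 genes. Of the lists described below, the share was 93.3% for meiotic germ cell, 80% for S phase and mitosis and 72.7% for spermatogonial genes. In the p53 target list and the lists of somatic cell markers it was 0% to 47.1%. Of the 29 genes 11 had an unadjusted p under 0.05, where 28.8% of all rows did. The values of all 3 ScAtrxKO arrays lay below all 3 Wildtype arrays for 8 genes (MRE11A, RAD50, BRCA2, FANCD2, PARP2, MSH3, MSH6 and ERCC1), where 17.6% of all rows tested did, and above them for XPA alone, where 16.2% did. Before normalization, the intensities of these 8 genes overlapped between the genotypes for all but MSH3. The summed intensity of the 29 genes, not scaled for the brightness of each array, was 16980, 22261 and 21300 in ScAtrxKO testes. In Wildtype testes it was 19807, 21254 and 19150. The mean intensity of all rows on the same arrays was 350, 469 and 458 against 368, 376 and 381, so the sums alone do not compare the genotypes. Measured as the median deviation from each gene's Wildtype mean, the 29 genes stood at -0.07, -0.06 and -0.13 on the 3 ScAtrxKO arrays, against 0.00, 0.03 and -0.03 on the Wildtype arrays. The genotypes did not overlap in this median. The same held for all rows tested, at -0.009, -0.012 and -0.015 against -0.002, -0.001 and 0.003. It also held for the 61 other tested repair genes described below, at -0.051, -0.057 and -0.037 on the ScAtrxKO arrays.

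**Figure D1:**
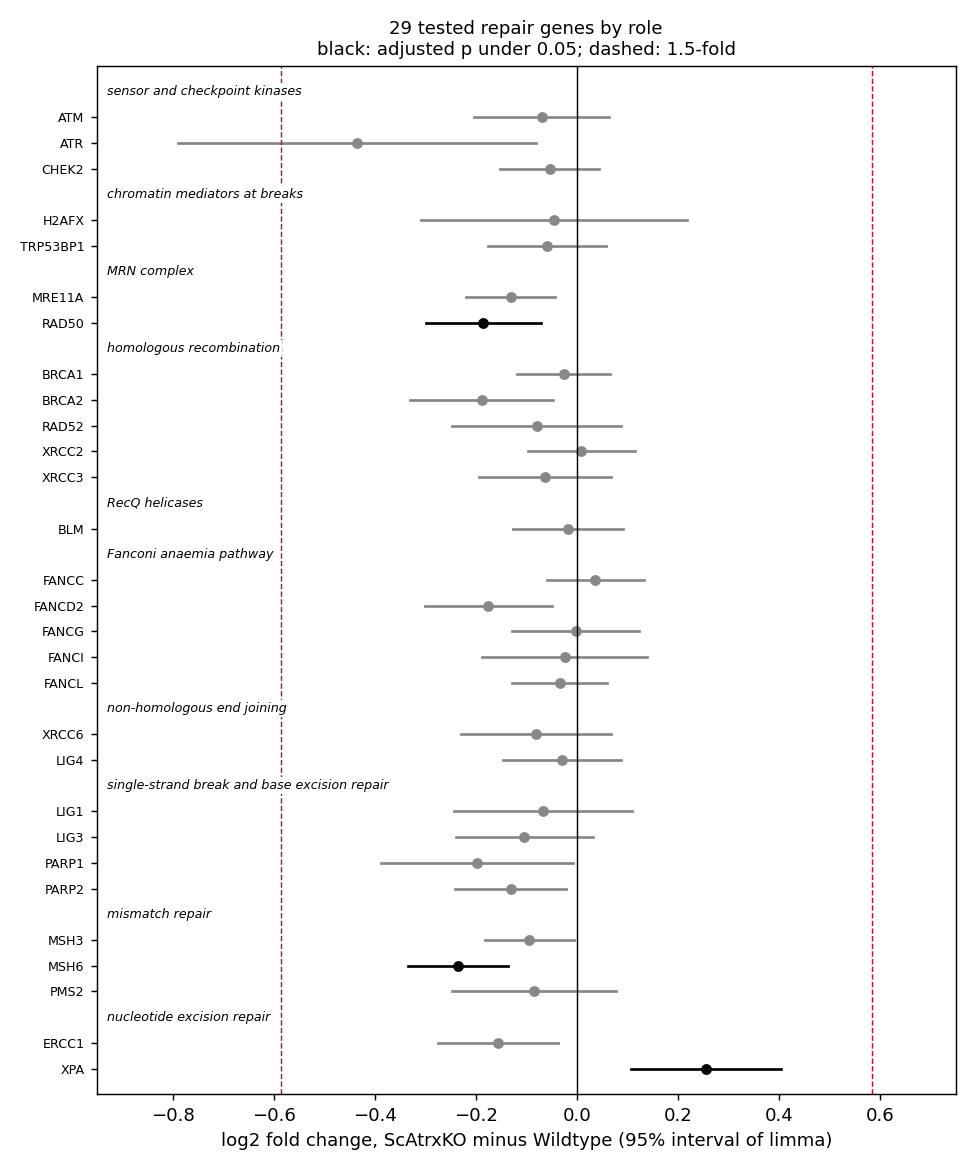
Log2 fold change, ScAtrxKO minus Wildtype, of the 29 tested repair genes in groups by role, with the 95% interval of limma (3 arrays per genotype) as a horizontal line. MSH6, RAD50 and XPA, in black, passed the test, and of all intervals the one of ATR alone crosses a dashed line at 1.5-fold.

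Of the sensor and checkpoint kinases, 3 of 5 entered the test and 0 passed. ATR, the kinase that is activated by single-stranded DNA at stalled replication forks, had log2 values of 10.73, 10.75 and 10.84 on the ScAtrxKO arrays, against 11.31, 11.51 and 10.81 on the Wildtype arrays. Wildtype replicate 3 lay within the range of the ScAtrxKO arrays, while the other Wildtype arrays were well above it. The log2 fold change was -0.44 (standard error 0.15, limma adjusted p = 0.104), with a 95% interval of -0.79 to -0.08. Without Wildtype replicate 3 it was -0.64 with an adjusted p of 0.00479, past the 1.5-fold limit, so 1 array decided this call. ATM, the kinase activated at double-strand breaks, had a log2 fold change of -0.07, and CHEK2, the checkpoint kinase that acts downstream of ATM, one of -0.05. CHEK1, the checkpoint kinase downstream of ATR, and TOPBP1, the activator of ATR, did not enter the test.

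The chromatin mediators mark the flanks of a double-strand break and recruit other factors to it. TRP53BP1, which shields broken ends from resection, had log2 values of 10.14, 10.10 and 9.98 on the ScAtrxKO arrays and 10.10, 10.15 and 10.14 on the Wildtype arrays. The genotypes overlapped, with a log2 fold change of -0.06 (limma adjusted p = 0.492). H2AFX, the histone variant that is phosphorylated around breaks, had one of -0.04 with a standard error of 0.11. MDC1, which binds that phosphorylated histone, did not enter the test.

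The MRN complex holds broken ends together, starts their resection and activates ATM. RAD50, its ATPase, fell to 8.84, 8.86 and 8.87 in ScAtrxKO testes, against 9.10, 9.08 and 8.95 in Wildtype testes. The genotypes did not overlap, and the log2 fold change was -0.19 (standard error 0.05, limma adjusted p = 0.0462). RAD50 was detected on 2 ScAtrxKO arrays and 1 Wildtype array, and its call was lost on leaving out any array other than Wildtype replicate 3. Over all alternatives in which it was tested, RAD50 lost its call in 11 of 16, with a limma adjusted p of up to 0.144. MRE11A, the nuclease of the complex, lay just outside the threshold. Its log2 values were 8.84, 8.86 and 8.82 in ScAtrxKO testes and 8.97, 8.98 and 8.97 in Wildtype testes, without overlap, with a log2 fold change of -0.13 (standard error 0.04, limma adjusted p = 0.0594). NBN, the adaptor of the complex, did not enter the test.

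In homologous recombination, 5 of 7 genes entered the test and 0 passed. BRCA2, which acts on resected DNA ahead of strand exchange, had log2 values of 8.71, 8.78 and 8.61 in ScAtrxKO testes, against 8.93, 8.95 and 8.79 in Wildtype testes. Its genotypes did not overlap, although the highest ScAtrxKO and the lowest Wildtype values nearly met. The log2 fold change was -0.19 (standard error 0.06, limma adjusted p = 0.0840), and without Wildtype replicate 3 it was -0.24 with an adjusted p of 0.0484. The other genes tested were near 0: BRCA1, a ubiquitin ligase that promotes resection, at -0.03, the annealing protein RAD52 at -0.08, and XRCC2 and XRCC3, which assist strand exchange, at 0.01 and -0.06. PALB2, which links BRCA1 to BRCA2, and RAD54L, a motor protein of the same step, did not enter the test.

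The RecQ helicases unwind recombination intermediates and stalled forks. BLM had log2 values of 9.31, 9.32 and 9.32 in ScAtrxKO testes and 9.27, 9.41 and 9.32 in Wildtype testes. The genotypes overlapped, with a log2 fold change of -0.02 (limma adjusted p = 0.851), and BLM was detected on 1 ScAtrxKO array and 0 Wildtype arrays. WRN did not enter the test.

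The Fanconi anaemia pathway repairs DNA strands that are linked to each other, and 5 of its 6 listed genes entered the test, with 0 passing. FANCD2, which is ubiquitinated by the core complex and clamps onto DNA, had log2 values of 9.12, 9.10 and 8.94 in ScAtrxKO testes, against 9.22, 9.23 and 9.22 in Wildtype testes. All ScAtrxKO values were lower, and ScAtrxKO replicate 3 stood furthest down. The log2 fold change was -0.17 (standard error 0.05, limma adjusted p = 0.0733). Its partner FANCI had a log2 fold change of -0.02, and FANCL, the ubiquitin ligase of the core complex, had -0.03. FANCC and FANCG, also of the core complex, had 0.04 and -0.0020, FANCG with a 95% interval of -0.13 to 0.12. FANCA did not enter the test.

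In non-homologous end joining, which ligates broken ends directly, 2 of 4 genes entered the test and 0 passed. XRCC6, the Ku70 subunit that binds free ends, had log2 values of 10.52, 10.42 and 10.39 in ScAtrxKO testes and 10.45, 10.65 and 10.48 in Wildtype testes. The genotypes overlapped, with a log2 fold change of -0.08 (standard error 0.06, limma adjusted p = 0.466). LIG4, the ligase of the pathway, had -0.03. XRCC5, the Ku80 subunit, and XRCC4, the cofactor of LIG4, did not enter the test.

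In single-strand break and base excision repair, 4 of 6 genes entered the test and 0 passed. PARP2, a poly(ADP-ribose) polymerase that is switched on by DNA breaks, had log2 values of 10.22, 10.24 and 10.15 in ScAtrxKO testes, against 10.39, 10.34 and 10.28 in Wildtype testes. The genotypes did not overlap, with a log2 fold change of -0.13 (standard error 0.05, limma adjusted p = 0.111). PARP1, the main polymerase of this kind, had log2 values of 10.84, 10.68 and 10.77 in ScAtrxKO testes and 10.97, 10.79 and 11.12 in Wildtype testes. Its genotypes overlapped, with a log2 fold change of -0.20 (standard error 0.08, limma adjusted p = 0.161). LIG1, which joins Okazaki fragments and repair patches, and LIG3, the ligase that works with XRCC1, had -0.07 and -0.10. The scaffold XRCC1 and OGG1, the glycosylase that removes oxidised guanine, did not enter the test.

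**Figure D2:**
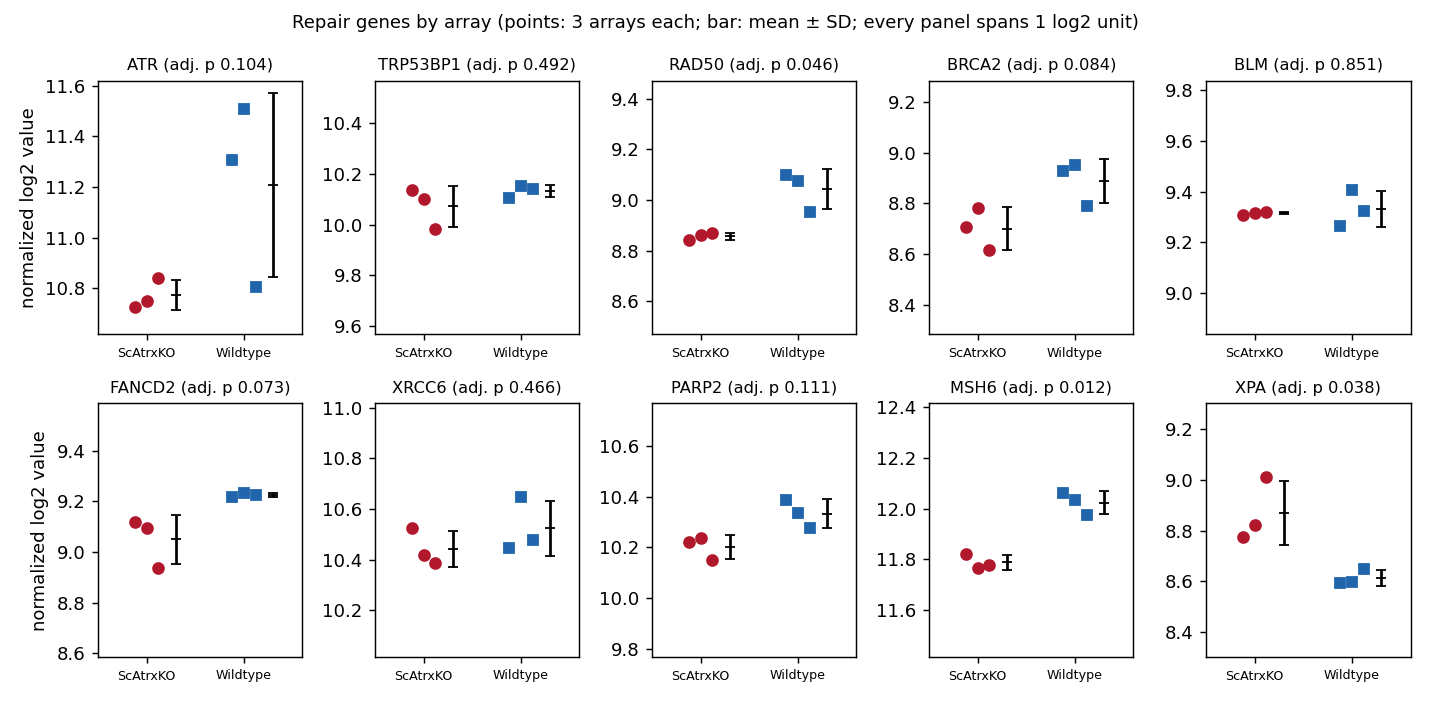
Normalized log2 values on each array for the genes with array values in each role, ScAtrxKO as circles and Wildtype as squares, each panel spanning 1 log2 unit, with the mean ± SD of 3 arrays as a bar. MSH6 (11.77 to 11.82 against 11.97 to 12.06) and RAD50 are lower on all ScAtrxKO arrays and XPA is higher, while for ATR Wildtype replicate 3 falls among the ScAtrxKO arrays.

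Mismatch repair was the only role with all its listed genes in the test, 1 of the 3 being lower. MSH6, which recognises mismatched bases, fell to 11.82, 11.77 and 11.78 in ScAtrxKO testes, against 12.06, 12.03 and 11.97 in Wildtype testes. The genotypes did not overlap, and within each genotype the arrays lay close together. The log2 fold change was -0.24 (standard error 0.04, limma adjusted p = 0.0119), with a 95% interval of -0.33 to -0.14. Before normalization the intensities were 3649, 4691 and 4597 in ScAtrxKO testes, against 4547, 4439 and 4311 in Wildtype testes. These overlap, with ScAtrxKO replicates 2 and 3 above every Wildtype array, so the decrease is relative to the other genes on the same array. It was not called with log2 quantile normalization (-0.23, adjusted p = 0.118) or median scaling (-0.24, adjusted p = 0.123), and without ScAtrxKO replicate 2 the limma adjusted p was 0.0504. MSH3, which recognises small loops of unpaired bases, had log2 values of 8.05, 8.02 and 8.01 in ScAtrxKO testes and 8.14, 8.12 and 8.11 in Wildtype testes, without overlap. Its log2 fold change was -0.09 (standard error 0.04, limma adjusted p = 0.148), but it was -0.40 with log2 quantile normalization (adjusted p = 0.0494) and -0.39 with median scaling (adjusted p = 0.0470), and it passed the test there. PMS2, the endonuclease subunit that nicks the strand to be corrected, had -0.08.

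In nucleotide excision repair, which cuts out bulky lesions, 2 of 3 genes entered the test. XPA, which verifies the damage and assembles the incision complex, rose to 8.77, 8.82 and 9.01 in ScAtrxKO testes, against 8.59, 8.60 and 8.65 in Wildtype testes. All ScAtrxKO values were higher, with replicate 3 highest, and the log2 fold change was 0.26 (standard error 0.06, limma adjusted p = 0.0381). The intensities were 286, 407 and 506 in ScAtrxKO testes and 231, 239 and 259 in Wildtype testes. However, XPA was detected on 0 ScAtrxKO arrays and on 1 Wildtype array, so it entered the test through the lower genotype, and its detection p lay between 0.00296 and 0.307. Its call was lost on leaving out any array other than ScAtrxKO replicate 1, with an adjusted p of up to 0.120. ERCC1, which forms the nuclease that cuts on one side of the lesion, had log2 values of 8.78, 8.70 and 8.64 in ScAtrxKO testes, against 8.83, 8.92 and 8.83 in Wildtype testes. These did not overlap, with a log2 fold change of -0.16 (standard error 0.05, limma adjusted p = 0.0857). XPC, which recognises distorted DNA, did not enter the test.

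The 13 genes outside the test were of 2 kinds. CHEK1, TOPBP1, MDC1, NBN, PALB2, FANCA, XRCC4, XRCC5 and OGG1 had background-subtracted intensities of -22.1 to 36.2 on single arrays, and a difference between genotypes was not measurable there. The other 4 genes had mean intensities above 100. RAD54L had 298, 379 and 379 in ScAtrxKO testes and 312, 353 and 311 in Wildtype testes. XPC had 268, 303 and 305 in ScAtrxKO testes and 283, 258 and 348 in Wildtype testes. XRCC1 had 240, 292 and 348 in ScAtrxKO testes and 253, 323 and 299 in Wildtype testes. For these 3 genes the genotypes overlapped. WRN had 149, 197 and 171 in ScAtrxKO testes and 185, 190 and 195 in Wildtype testes, which overlap as intensities, but its normalized log2 values of 8.35, 8.33 and 8.26 in ScAtrxKO testes all lay below the 8.45, 8.45 and 8.47 in Wildtype testes. The lowest detection p was 0.219 for RAD54L, 0.0224 for XPC, 0.0610 for XRCC1 and 0.0173 for WRN. The detection p of these 4 genes lay off the steps of 1 in 936 (tolerance 6e-06) on all 6 arrays. The same held for 17 of the 42 repair genes, tested and dim ones among them, and for 18.1% of all rows, while 76.6% of all rows lay on the steps on every array. The sources used here do not say how the values off the steps were formed. Of the 29 genes in the test, 20 were detected on all 6 arrays and 9 on fewer.

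**Figure D3:**
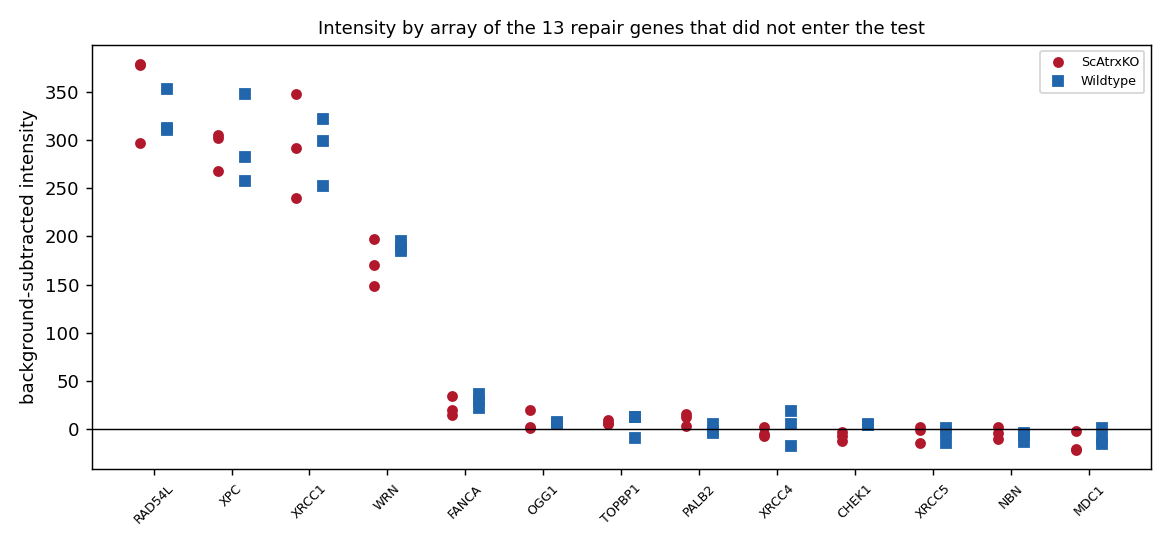
Background-subtracted intensity on each array of the 13 repair genes that did not enter the test, ScAtrxKO as circles and Wildtype as squares. RAD54L, XPC, XRCC1 and WRN lie well above 0 on every array, and the other 9 genes lie between -22.1 and 36.2.

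Further genes of the same pathways were taken from a list of 89 names, of which 79 had a row and 61 entered the test. Of these, 2 were higher, 2 were lower and 57 did not pass, with a median log2 fold change of -0.06 and 78.7% of the values below 0. The calls made 6.56% of the 61, where 13% of all rows tested passed. POLK, a translesion polymerase that copies damaged templates, had log2 values of 8.92, 8.91 and 8.96 in ScAtrxKO testes, against 8.50, 8.51 and 8.41 in Wildtype testes. The genotypes lay far apart, with a log2 fold change of 0.45 (standard error 0.05, limma adjusted p = 0.00101). ERCC5, the other incision nuclease of nucleotide excision repair, had 9.87, 9.92 and 10.01 in ScAtrxKO testes, against 9.57, 9.50 and 9.48 in Wildtype testes. It too was higher on every ScAtrxKO array, with a log2 fold change of 0.42 (standard error 0.05, limma adjusted p = 0.00230). POLK and ERCC5 passed the test under every alternative. The size of the change depended on the scale, with POLK at 0.89 with log2 quantile normalization and ERCC5 at 0.66 with neqc, both past the 1.5-fold limit that neither reached on the deposited scale. MAD2L2, a subunit of the translesion polymerase zeta, had a log2 fold change of -0.24 (standard error 0.06, limma adjusted p = 0.0327), and BTBD12, the nuclease scaffold now named SLX4, one of -0.19 (standard error 0.05, limma adjusted p = 0.0409). Both calls were lost under several alternatives, with adjusted p of up to 0.106 for MAD2L2 and 0.174 for BTBD12.

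The p53 target genes, which the p53 protein switches on after DNA damage and other stresses, differed from this pattern. Of 25 names 24 had a row and 19 entered the test, of which 11 were higher, 0 were lower and 8 did not pass, with a median log2 fold change of 0.18. Over all rows tested, 7.47% were higher and 5.50% were lower. FAS, among the 11, was detected on 3 ScAtrxKO and 0 Wildtype arrays, so it entered the test only through the higher genotype. CDKN1A, the cell cycle inhibitor p21, rose to 9.36, 9.46 and 9.52 in ScAtrxKO testes, against 8.00, 7.99 and 7.99 in Wildtype testes. Its log2 fold change was 1.46 (standard error 0.05, limma adjusted p = 1.6e-05). ZMAT3, CCNG1 and PHLDA3 also passed the 1.5-fold limit, at 1.20, 0.80 and 0.72. These sizes depended on the scale, with CDKN1A at 3.28 and ZMAT3 at 2.02 under log2 quantile normalization and CCNG1 at 1.21 under neqc. The list contains POLK, DDB2 and XPC, which are also repair genes. POLK was among the 11 that were higher, DDB2, which recognises ultraviolet lesions in chromatin, had a log2 fold change of -0.17 (limma adjusted p = 0.166), and XPC did not enter the test. The p53 gene itself, TRP53, was counted among the 19 and had a log2 fold change of 0.14 (limma adjusted p = 0.205). MDM2, the ligase that degrades p53, had -0.07.

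**Figure D4:**
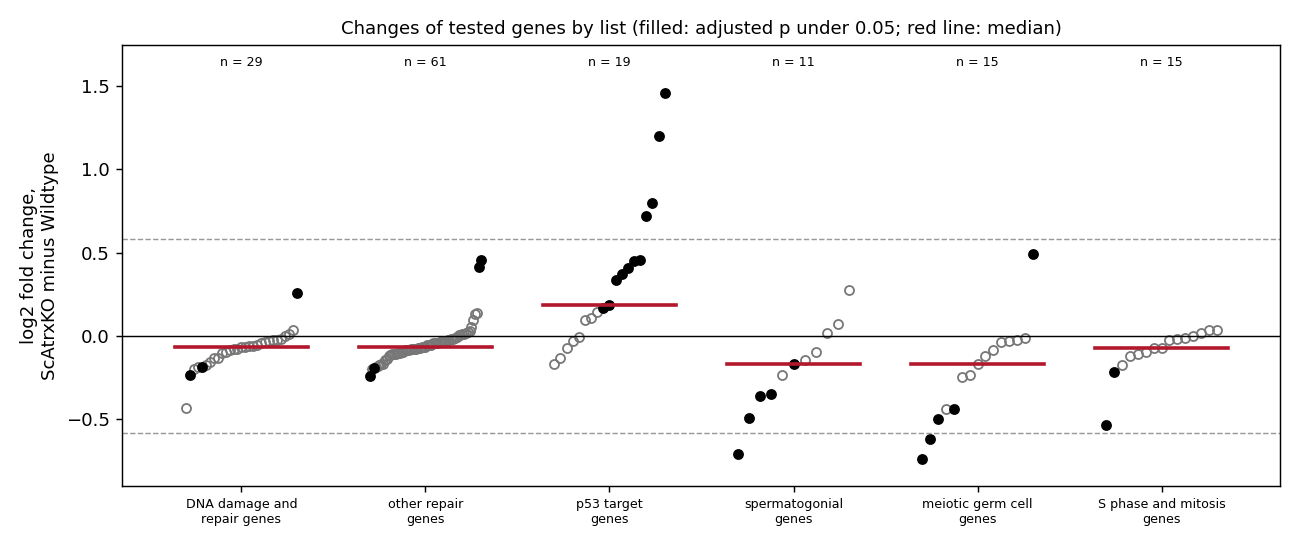
Log2 fold change, ScAtrxKO minus Wildtype, of every tested gene of 6 lists in rising order, filled where the adjusted p was under 0.05, with the median of each list as a red line and 1.5-fold as dashed lines. The 29 DNA damage and repair genes centre at -0.07 within a narrow band, the 61 other repair genes at -0.06, and the p53 targets at 0.18 with CDKN1A at 1.46.

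Markers of the cell types in the testis also differed between the genotypes. Of all rows tested, 7.47% were higher and 5.50% were lower. Of 11 spermatogonial genes in the test 0 were higher and 5 were lower, with a median of -0.17, among them SALL4 at -0.71 and KIT at -0.35. STRA8 (0.27), DMRT1 (0.07) and GFRA1 (0.02) lay above 0 and did not pass. SALL4 and NANOS3 were detected on 0 ScAtrxKO and 3 Wildtype arrays, so both entered the test only through the higher genotype. Of 15 meiotic germ cell genes 1 was higher, REC8 at 0.49, and 4 were lower, with a median of -0.17 and SYCP1 at -0.50. SYCP2, among these 4, was detected on 0 ScAtrxKO and 2 Wildtype arrays. The summed intensity of the spermatogonial genes was 9375 to 12360 in ScAtrxKO and 12273 to 12918 in Wildtype testes. That of the meiotic genes was 15063 to 19389 in ScAtrxKO and 15905 to 19656 in Wildtype testes. These sums are not scaled for array brightness, which had a mean of 350 to 469 in ScAtrxKO and 368 to 381 in Wildtype testes. Of 15 S phase and mitosis genes 2 were lower, RRM1 at -0.54 and MCM7 at -0.22, with a median of -0.07. Macrophage markers were higher in 12 of 13 cases, with a median of 0.64, and so were 4 of 6 endothelial markers (0.22), 3 of 7 Leydig cell markers (0.24), 2 of 17 Sertoli cell markers (0.04) and 1 of 3 peritubular myoid markers (0.01), with 0 lower in these 5 lists. Of the markers that were higher, CSF1R (macrophage) and LHCGR (Leydig cell) were detected on 3 ScAtrxKO and 0 Wildtype arrays. The part of these cell types in the values of the repair genes was not tested.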

How the data were processed

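RNA of 6 whole testes was hybridised to Illumina MouseWG-6 v2 arrays. In GenomeStudio the authors removed background and took the mean of the probes of a gene row. They deposited the result as a linear intensity per row and array. The deposited tables also give a detection p-value, an array's measure of whether a row exceeded the negative control probes. Variance stabilization and quantile normalization in lumi followed, and the authors deposited the outcome as log2 values. Program versions are not given in the sources used here. The array columns are named by genotype and number, and M was taken as ScAtrxKO. The columns of unmapped samples numbered 0. The authors' tables of fold changes, p-values and GO terms were not used.

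In R 4.3.3, limma 3.58.1 fitted genotype alone to the normalized log2 values by lmFit, followed by eBayes, over the 13026 of 30774 rows with a detection p under 0.01 on at least 1 array. Benjamini-Hochberg adjustment ran over all these rows, with thresholds of 0.05 and, for the fold limit, 1.5. With 3 arrays a genotype the precision is limited, and an exact permutation test of 3 against 3 cannot go below p = 0.1. The fit was tested on simulated data. The 42 genes, their roles and the other lists were chosen with earlier results of these data known. All 42 genes are named, those that passed with their values, and in each role without such a gene the one of smallest p. MRE11A, PARP1, MSH3, ERCC1 and the genes outside the test were given array values after these had been seen. The alternatives were neqc (offset 16), log2 quantile normalization and median scaling (intensity floor 1), stricter and absent detection filters, the value table of the series, a variance trend on intensity (plain or robust), a block for the replicate number, weights for arrays, and fits that each omitted 1 array. Admitting rows with a mean intensity of at least 200 was added after seeing the data.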

Additional observations from a re-analysis of the deposited data

How the results depend on the processing

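The count of repair genes that were higher was 1, and was 0 with neqc, log2 quantile normalization, log2 median scaling, detection on all 3 arrays of a genotype, or no detection filter. Leaving out 1 array gave 0 to 1. The count that were lower was 2, and was 1 with log2 quantile normalization, log2 median scaling, detection on all 3 arrays of a genotype and the intensity trend with or without robust estimation, and 4 with no detection filter (MSH6, RAD50, MRE11A and WRN). Leaving out 1 array gave 0 to 4, with 4 without Wildtype replicate 3 (ATR, RAD50, BRCA2 and MSH6) and 0 without ScAtrxKO replicate 2, where MSH6 had an adjusted p of 0.0504. Past the 1.5-fold limit, 0 to 1 genes were lower on leaving out an array (ATR) and 0 were higher in every setting. Under log2 quantile normalization and median scaling the gene that was lower was MSH3 (-0.40 and -0.39, adjusted p = 0.0494 and 0.0470), and the 95% interval lay inside 1.5-fold for 20 and 21 of 29 genes, against 28. MRE11A passed with neqc (0.0171) and with no detection filter (0.0271). With neqc the 2 genes that were lower were MSH6 and MRE11A, without RAD50. Among the other repair genes MAD2L2 lost its call in 9 of 17 settings and BTBD12 in 11, while 2 genes were higher in every setting. The p53 targets that were higher numbered 9 to 11. The labels do not say whether replicate numbers pair the samples. Deviations from the genotype means correlated at 0.00, 0.05 and 0.08 for the same number and at -0.07 to 0.04 for different numbers. These weak correlations cannot decide whether samples were paired. With the replicate number as a block 1 repair gene was higher and 2 were lower, with BRCA2 (adjusted p = 0.0452) in place of RAD50 (0.0721). The fold change of FANCG turned to 0.0055 with array weights. Signs also turned on leaving out 1 array, with a range of -0.13 to 0.085 for H2AFX, -0.018 to 0.030 for XRCC2, -0.051 to 0.020 for BLM, -0.044 to 0.033 for FANCG, -0.078 to 0.032 for FANCI, -0.073 to 0.011 for LIG4 and -0.14 to 0.013 for LIG1. The causes were not tested. The median log2 fold change of all rows tested was -0.012 on the deposited scale and -0.007 with neqc. It was -0.032 with log2 quantile normalization and -0.035 with log2 median scaling. In the main fit the 9 dim genes and the 4 brighter ones without a detection call have no tested value, and 3 arrays per genotype limit the others.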
